A study of Homo sapiens with 5 samples.

Results

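The miR-29 family was measured by 3 probes on a panel of 654 human miRNA probes, hsa-miR-29a, hsa-miR-29b and hsa-miR-29c, chosen by name, with the star forms left out. No probe for another product of a miR-29 hairpin was on the panel. The study profiled miRNAs in 5 human hematopoietic cell lines by nCounter, an assay that counts fluorescent barcodes bound to single miRNAs without amplification. Each line was represented by 1 sample of 100 ng of Trizol-extracted total RNA, and no treatment was given. Meg-01 is a megakaryoblastic line from chronic myelogenous leukemia in blast crisis, Jurkat an acute T-cell leukemia line, Raji a Burkitt lymphoma B-cell line, U937 a monocytic line from histiocytic lymphoma, and K562 an erythroleukemic line from chronic myelogenous leukemia. These are established tumor lines and not normal blood cells. With 1 sample per line no test between lines was possible, and every interval given here is a 95% interval that covers counting error only, not culture-to-culture variation.

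A miRNA guides the silencing machinery to messenger RNAs through its seed, the short stretch near its 5′ end that pairs with the target. The miR-29 family is known for repressing collagens and other extracellular matrix genes, the de novo DNA methyltransferases, and the anti-apoptotic protein MCL1, and it is known to be repressed by the transcription factor MYC. Its loss is described in several leukemias and lymphomas.

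The mature sequences are shown because the 3 probes read almost the same molecule. They were taken from RefSeq (GRCh38.p14), all 3 matched by name as the 3′ arm of their hairpins, and the seed, bases 2 to 8, is in capitals.
hsa-miR-29a: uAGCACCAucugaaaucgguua
hsa-miR-29b: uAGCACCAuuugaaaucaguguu
hsa-miR-29c: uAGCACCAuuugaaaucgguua
The seed AGCACCA was identical in all 3 members, and of 2351 distinct mature human sequences in the table these 3 were the only ones that carried it. Counted from 1 at the 5′ end, miR-29a and miR-29c differed by a single substitution, C10U. Only 56 of the 2351 sequences (2.38%) had another sequence of equal length at 1 substitution. From miR-29c to miR-29b the changes were G18A, U21G and A22U, and miR-29b had 1 further base, for a length of 23 against 22. The 3′ end of miR-29b held AGUGUU, the element known to direct miR-29b to the nucleus, which ended 2 of the 2351 sequences (0.0851%), lay anywhere in 13 (0.553%), and was in no other member.

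The members come from a pair of clusters, all on the minus strand of GRCh38.p14. MIR29A lies at chr7:130876747-130876810 and MIR29B1 at chr7:130877459-130877539, 648 bases apart, and neither overlapped another listed gene. MIR29C lies at chr1:207801852-207801939 and MIR29B2 at chr1:207802443-207802523, 503 bases apart, and both lie within the noncoding host gene MIR29B2CHG. The hairpins that give miR-29b are shown with the mature miRNA in capitals, because both release the same molecule and the miR-29b probe therefore reads the sum of the 2 loci.
MIR29B1: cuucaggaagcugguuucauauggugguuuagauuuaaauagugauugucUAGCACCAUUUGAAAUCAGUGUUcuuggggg
MIR29B2: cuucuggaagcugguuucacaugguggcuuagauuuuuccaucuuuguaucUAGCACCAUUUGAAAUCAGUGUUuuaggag
Levels of miR-29a thus come from chromosome 7 and those of miR-29c from chromosome 1, while miR-29b can come from either or both. How much each locus gave in these lines was not measured.

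Summed over the human probes, Raji gave the fewest counts (66892) and Jurkat the most (130048). The scale of each line was set by the geometric mean count of the same 100 abundant human probes (normalized counts), and each line's background threshold, the mean plus 2 SD of its 8 negative controls, was subtracted (background-subtracted counts). The threshold was 34.6 to 45.9 counts before scaling but 28.2 normalized counts in Jurkat and 72.4 in Raji. Raji had both the largest scaling factor (1.58, against 0.805 in Jurkat) and the highest threshold before scaling (45.9). Marker miRNAs were checked by their counts. The erythroid miR-144 was above the threshold in Meg-01 (981) and K562 (216), and not in the other lines (16 to 31). The lymphocyte miR-150 was above it only in Jurkat (1030) and read 21 in Raji, although both are lymphoid lines. The Epstein-Barr virus probe BHRF1-2 was above it only in Raji (296, against 12 to 28), a line that carries the virus. The myeloid miR-223 was above it in all 5 lines, from 62 in Raji to 3269 in Meg-01. The megakaryocytic and progenitor miR-126 did not single out Meg-01 (1954). It read 1482 in K562, was also above the threshold in Jurkat (99) and U937 (96), and was not in Raji (31). The erythroid miR-451 was above the threshold in Meg-01 (129) and K562 (59), and not in the other lines (13 to 19).

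All 3 members were above background in all 5 lines, as were 13.5% of human probes. For miR-29a the counts were 1483 (1408 to 1560) in Raji, 1040 (978 to 1105) in U937, 592 (545 to 642) in Meg-01, 451 (410 to 495) in Jurkat and 380 (343 to 420) in K562. They made 2341 normalized counts in Raji and 363 in Jurkat before subtraction. After scaling and subtraction these became 2269 (2151 to 2391) in Raji, 1049 (984 to 1117) in U937, 422 (377 to 472) in K562, 408 (373 to 445) in Meg-01 and 335 (302 to 370) in Jurkat. Raji stood highest and U937 next, and the other 3 lines lay close together. Background made up 3.09% to 9.11% of the miR-29a count. In Raji miR-29a was the 11th most abundant human miRNA and made up 2.99% of all background-subtracted human counts, against rank 32 and 0.371% in Jurkat. K562 and Meg-01 had no order beyond counting error (Meg-01 over K562 0.965-fold, 0.839 to 1.11), and their log2 ratio ranged from -0.53 to 0.68 over the 11 alternatives, with the same sign in 6, whereas Meg-01 over Jurkat was 1.22-fold (1.07 to 1.39). Raji was the highest line for miR-29a under all 11 alternative settings, while Jurkat was the lowest under 7. One of the 11, a minimum of 30 counts, lay below every line's threshold and could change no value.

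The miR-29b signal was low. Its counts were 147 (124 to 173) in Jurkat, 142 (120 to 167) in Raji, 69 (53.7 to 87.3) in Meg-01, 68 (52.8 to 86.2) in U937 and 55 (41.4 to 71.6) in K562. Background-subtracted counts were 152 (116 to 192) in Raji, 90.2 (71.8 to 111) in Jurkat, 34.6 (18.7 to 53.6) in U937, 24.9 (8.33 to 45.2) in K562 and 19.9 (8.59 to 33.5) in Meg-01. Only the 2 lymphoid lines, Jurkat and Raji, stood clear of the rest. Background took 61.0% of the miR-29b count in Meg-01, 63.0% in K562 and 51.3% in U937, and the count was 1.59 to 4.20 times the threshold over the 5 lines. The 3 pairwise intervals among Meg-01, U937 and K562 all included equality, so these lines had no measurable order. Jurkat exceeded U937 2.61-fold (1.53 to 4.44). Raji exceeded Jurkat 1.68-fold (1.22 to 2.32), but this order turned under 4 of 11 alternatives, all of which left out the scaling to human probes. Meg-01 was the lowest line under 7 of them.

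For miR-29c the counts were 1989 (1903 to 2078) in Jurkat, 507 (464 to 553) in Meg-01, 301 (268 to 337) in U937, 242 (212 to 274) in Raji and 130 (109 to 154) in K562. Background-subtracted counts were 1574 (1504 to 1646) in Jurkat, 345 (313 to 379) in Meg-01, 309.6 (263 to 361) in Raji, 278 (243 to 315) in U937 and 117 (90.5 to 146) in K562. Jurkat stood alone at the top, 4.57-fold (4.11 to 5.07) above Meg-01, and K562 at the bottom, with U937 2.38-fold (1.82 to 3.11) above it. Neighbours between them were not distinguished, with Meg-01 over Raji at 1.11-fold (0.928 to 1.34) and Raji over U937 at 1.12-fold (0.912 to 1.36). The latter turned under 4 of 11 alternatives, to a log2 ratio as low as -0.88. In the scaling used Meg-01 exceeded U937 1.24-fold (1.06 to 1.46), an order that turned with scaling to the housekeeping probes (log2 -0.10). Jurkat was the highest and K562 the lowest line for miR-29c under all 11 alternatives. In Jurkat miR-29c ranked 15th and made up 1.74% of background-subtracted human counts, against rank 51 and 0.107% in K562.

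**Figure D1:**
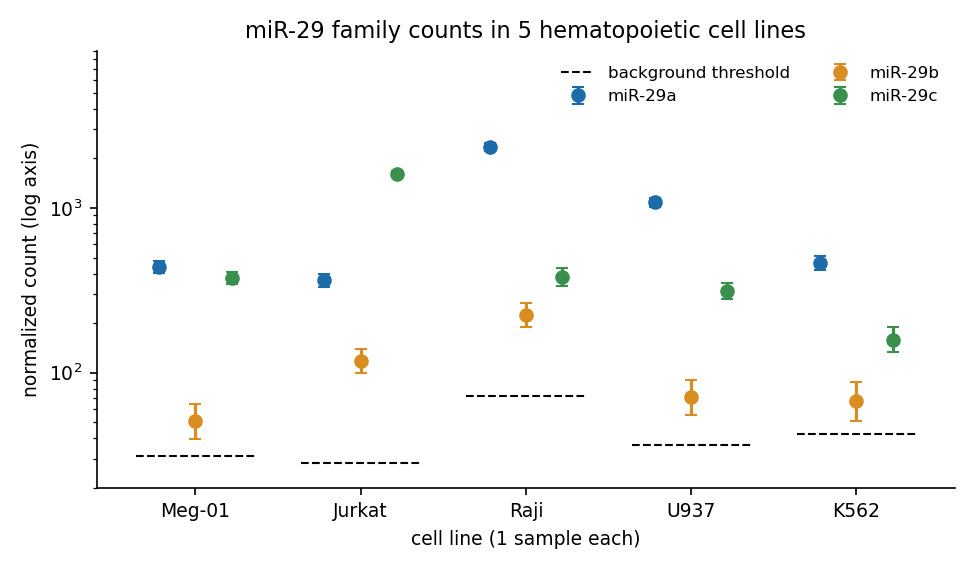
Normalized counts of miR-29a, miR-29b and miR-29c, before subtraction, in the 1 sample of each cell line on a log axis, with 95% counting intervals as bars and the background threshold of the line as a dashed line. Raji was highest for miR-29a (2341) and Jurkat for miR-29c (1602), whereas miR-29b reached at most 224 and lay nearest to the threshold in every line.

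Summed over the 3 members, the family gave background-subtracted counts of 2730.2 (2598 to 2867) in Raji, 1999 (1919 to 2081) in Jurkat, 1361 (1285 to 1440) in U937, 772 (723 to 823) in Meg-01 and 564 (508 to 623) in K562. Raji was 4.84-fold (4.33 to 5.42) above K562, and 2.26-fold with scaling to the housekeeping probes. The sum was 3.59% of background-subtracted human counts in Raji, 2.21% in Jurkat, 1.69% in U937, 1.15% in Meg-01 and 0.517% in K562. Counted as one miRNA, the family would have ranked 10th in Raji and 19th in K562. Raji was the highest line under 7 of 11 alternatives and Jurkat under the other 4 (no scaling, positive controls, housekeeping probes and the deposited signals), so the order of these 2 lines depended on the scaling. With housekeeping probes U937 also stood above Raji.

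The family sums of Jurkat and Raji were made of different members. In Jurkat miR-29c made up 78.7% of the family, miR-29a 16.8% and miR-29b 4.51% of background-subtracted counts. In Raji miR-29a made up 83.1%, miR-29c 11.3% and miR-29b 5.56%. The other lines lay between or near Raji: miR-29a made up 77.1% of the family in U937, 74.9% in K562 and 52.8% in Meg-01, and miR-29c 20.4%, 20.7% and 44.6%, respectively. The miR-29b share stayed between 2.54% and 5.56% in every line. These shares take the 3 probes as equally efficient, which was not tested. A constant difference in efficiency would cancel where the ratio of 2 members is compared between lines.

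Shares within a line do not depend on the scaling. Before subtraction the miR-29c share was 76.9% (75.2 to 78.5) in Jurkat and 13.0% (11.5 to 14.6) in Raji. The miR-29a share was 17.4% (16.0 to 19.0) in Jurkat and 79.4% (77.5 to 81.2) in Raji. The miR-29a share thus spanned 62.0 percentage points over the lines before subtraction and 66.3 after. The largest shift that subtraction made to any share was 7.64 points, for miR-29a in K562, and the miR-29b share there fell from 9.73% to 4.42%. It also fell from 5.91% to 2.58% in Meg-01 and from 4.83% to 2.54% in U937, so relative to its size the miR-29b share changed most.

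**Figure D2:**
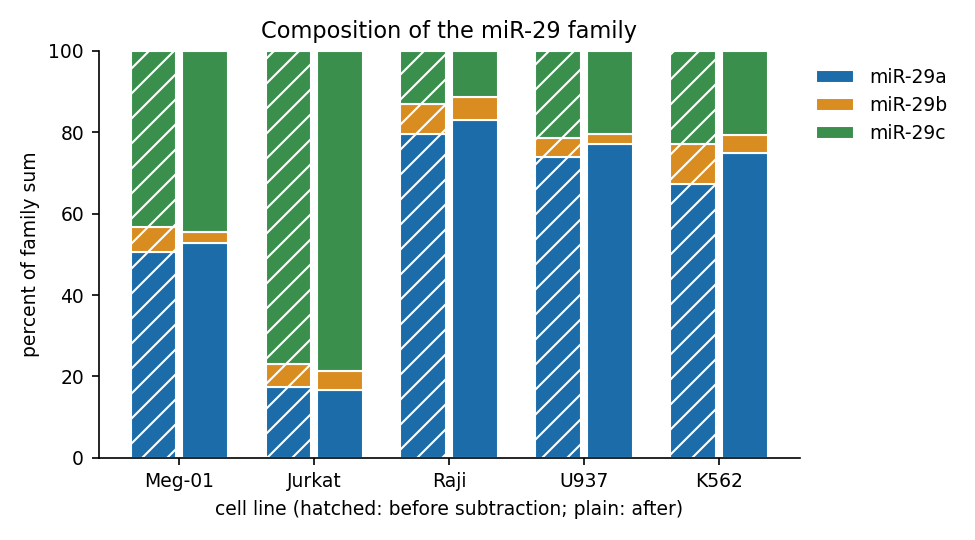
Share of each member in the summed miR-29 counts of each cell line, in percent on the y axis, before (hatched) and after (plain) background subtraction. The plain bar of Jurkat is mostly miR-29c (78.7%) and that of Raji mostly miR-29a (83.1%).

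As a ratio of counts, miR-29c exceeded miR-29a 4.41-fold (3.98 to 4.90) in Jurkat before subtraction and 4.70-fold (4.21 to 5.24) after. In Raji miR-29a exceeded miR-29c 6.13-fold (5.35 to 7.05) before and 7.33-fold (6.22 to 8.63) after. The miR-29c to miR-29a ratio therefore differed 34.4-fold between these lines (28.3 to 41.9; log2 5.11, SE 0.15) after subtraction and 27.0-fold before. Because the probes target sequences 1 base apart, each count could hold some signal from the other molecule, and this was not tested. The smaller of both counts was 16.3% of the larger in Raji and 22.7% in Jurkat. The higher count was miR-29a in Raji, U937, K562 and Meg-01 (1.17-fold, 1.04 to 1.32, in Meg-01 before subtraction) and miR-29c in Jurkat.

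Between each pair of lines the 3 members gave 30 ratios. After subtraction 20 of them (66.7%) were at least 2-fold, against 49.2% of all ratios of human probes above background in both lines. Before subtraction it was 17 (56.7%), against 28.7%. By member the number was 7 before and 7 after for miR-29a, 4 and 6 for miR-29b, and 6 and 7 for miR-29c. Subtraction moved 25 of the 30 ratios away from equality. The 3 that passed 2-fold only after subtraction were miR-29b in Jurkat over U937 (1.67-fold before and 2.61-fold after), miR-29b in Jurkat over K562 (1.76-fold and 3.62-fold) and miR-29c in U937 over K562 (1.98-fold and 2.38-fold). One ratio changed direction, miR-29c in Meg-01 over Raji, from 0.984-fold to 1.11-fold.

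Subtraction changed miR-29b, the member nearest to background, most. The log2 ratio changed in size by at most 0.093 for miR-29a, 0.42 for miR-29c and 1.04 for miR-29b, the last in Jurkat over K562. For miR-29a, Raji over Jurkat was 6.45-fold (5.80 to 7.18) before and 6.77-fold (6.05 to 7.58) after. For miR-29c, Jurkat over K562 was 10.1-fold (8.43 to 12.1) before and 13.5-fold (10.6 to 17.1) after. For miR-29b, Raji over Meg-01 was 4.38-fold (3.26 to 5.93) before and 7.61-fold (3.96 to 14.6) after, an interval that widened with the shift. Among the 88 human probes above background in all lines the spreads of miR-29a, miR-29c and miR-29b after subtraction ranked 28th, 15th and 25th from the widest, respectively, where the median probe spread 4.41-fold. Before subtraction they ranked 14th, 10th and 20th, where the median probe spread 2.53-fold.

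**Figure D3:**
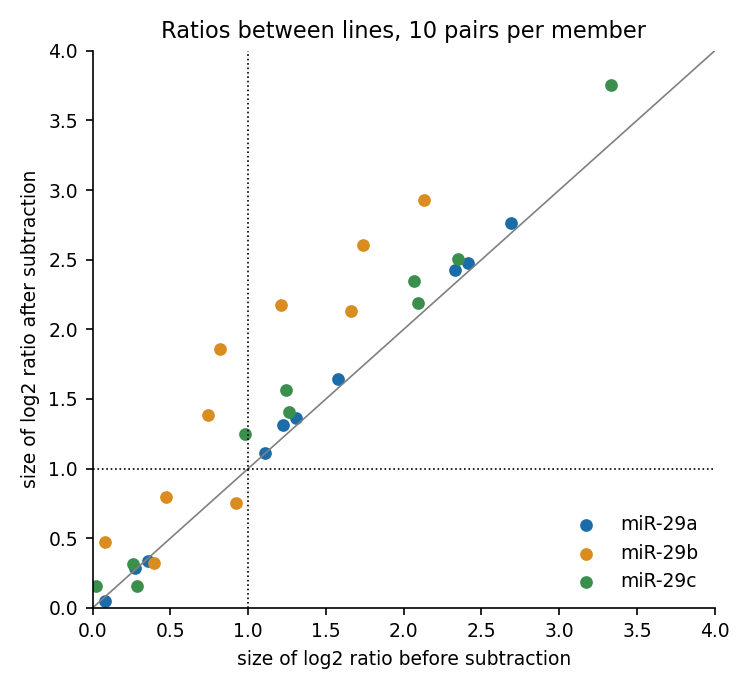
Size of the log2 ratio between each of the 10 pairs of lines, before subtraction on the x axis and after it on the y axis, 1 point per pair and member, with the line of equal values in grey and 2-fold dotted. Points of miR-29a lie along the grey line (change of at most 0.093), while those of miR-29b lie up to 1.04 from it.

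Jurkat over Raji gave the widest contrast within the family. The log2 ratio after subtraction was -2.76 (SE 0.083) for miR-29a, -0.75 (SE 0.24) for miR-29b and 2.35 (SE 0.12) for miR-29c, where the SE is counting error. In linear terms miR-29c was 5.08-fold (4.32 to 5.97) higher in Jurkat and miR-29a 6.77-fold higher in Raji. Of the 106 human probes above background in both lines 39.6% differed at least 2-fold, 24.5% higher and 15.1% lower in Jurkat, with a median log2 ratio of 0.19. A further 123 human probes were above background in Jurkat but not in Raji, against 5 in Raji but not in Jurkat, and these have no ratio after subtraction. The normalized threshold was 28.2 in Jurkat and 72.4 in Raji, so a probe at an equal level between these values counted as above background in Jurkat only. In the order of the 106 ratios miR-29c was 8th from the top and miR-29a 5th from the bottom. The miR-29b ratio lay within 2-fold, and its sign turned without scaling to human probes, from -0.75 to between 0.12 and 0.22. The signs and 2-fold calls of miR-29a and miR-29c held under all 11 alternatives. Their sizes did not, as the log2 ratio reached -1.75 for miR-29a and ranged from 2.07 to 3.32 for miR-29c.

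**Figure D4:**
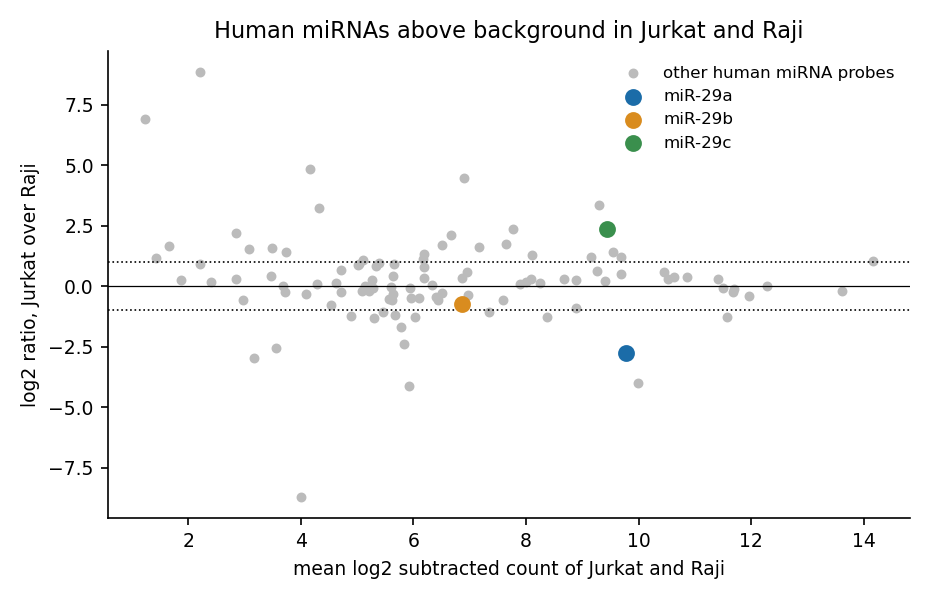
Log2 ratio of Jurkat over Raji after subtraction (y axis) against the mean log2 background-subtracted count of these lines (x axis) for the 106 human probes above background in both, with 2-fold dotted and the members in color. miR-29c (2.35) lies near the top and miR-29a (-2.76) near the bottom.

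The members also parted in other comparisons of Jurkat and Raji. All 3 members were at least 2-fold apart in Jurkat over U937 (40.9% of human probes), with miR-29a at 0.319-fold, miR-29b at 2.61-fold and miR-29c at 5.67-fold. All 3 were higher in Raji than in K562 (58.6% of probes were at least 2-fold apart), at 5.37-fold for miR-29a, 6.09-fold for miR-29b and 2.65-fold for miR-29c. In Jurkat over K562 (56.6% of probes) miR-29b and miR-29c passed 2-fold and miR-29a did not, at 0.793-fold, a ratio with the same direction under 8 of 11 alternatives and a log2 value of up to 0.28 under the others. In Raji over U937 (35.0% of probes) miR-29a, at 2.16-fold, and miR-29b, at 4.39-fold, passed and miR-29c did not. The miR-29a ratio depended on the scaling, with a log2 value of 1.11 that fell as low as 0.080 and was past 2-fold under 7 of 11 alternatives. For Raji over K562 the log2 ratio fell as low as 1.33 from 2.43 for miR-29a, 1.51 from 2.61 for miR-29b and 0.31 from 1.41 for miR-29c, the last past 2-fold under 10.

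Meg-01 lay close to Raji in miR-29c, at 1.11-fold, and to Jurkat in miR-29a, at 1.22-fold. The first depended on the scaling, since its log2 ratio ranged from -0.023 to 1.25 and was past 2-fold under 3 of 11 alternatives, and the second ranged from -0.073 to 0.65. In Meg-01 over Jurkat (57.7% of probes) miR-29b and miR-29c were lower, at 0.221-fold and 0.219-fold. In Meg-01 over Raji (50.5% of probes) miR-29a and miR-29b were lower, at 0.180-fold and 0.131-fold. Over the alternatives their log2 ratios reached -1.35 (from -2.48) and -1.29 (from -2.93), respectively. Among the 3 lines of myeloid origin 1 member differed in Meg-01 over U937 (46.2% of probes; miR-29a, 0.389-fold), 1 member in Meg-01 over K562 (51.1%; miR-29c, 2.96-fold) and 2 members in U937 over K562 (52.9%; miR-29a, 2.48-fold, and miR-29c, 2.38-fold). Meg-01 and K562, both from chronic myelogenous leukemia, had no order beyond counting error in miR-29a or miR-29b, and for both members the sign of their ratio depended on the setting. Among other ratios past 2-fold that moved over the alternatives, the log2 value of miR-29b in Meg-01 over Jurkat reached -1.21 (from -2.18) and that of miR-29a in Meg-01 over U937 -0.83 (from -1.36). In Jurkat over K562 miR-29b ranged from 0.82 to 2.46 and miR-29c from 3.33 to 4.36. In Jurkat over U937 miR-29b ranged from 0.74 to 1.76. Ratios to K562 reached 2.29 for miR-29c in Meg-01, and 1.98 for miR-29a and 1.91 for miR-29c in U937. Over all 30 ratios, 21 kept their direction under all 11 alternatives, and 14 of the 20 at or past 2-fold stayed there. The other 6 were miR-29a in Raji over U937 and in Meg-01 over U937, miR-29b in Jurkat over U937 and over K562, and miR-29c in Raji over K562 and in U937 over K562.

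The pattern over lines was compared with that of the 87 other human probes above background in all lines, by the root mean square difference of log2 background-subtracted counts after centring each probe on its mean. A smaller value is a closer pattern. For miR-29c the nearest probes were miR-342-3p at 0.35, let-7a at 0.62 and miR-142-5p at 0.70, where the median probe lay at 1.43. The miR-342-3p counts after subtraction were 497 in Jurkat, 96.5 in Raji, 76.3 in U937, 62.9 in Meg-01 and 43.3 in K562, the same order of lines as for miR-29c except that Meg-01 lay below Raji and U937. For miR-29a the nearest were miR-30d at 0.51, miR-378 at 0.53 and miR-30e at 0.70, against a median of 1.29. For miR-29b they were miR-503 at 0.41, miR-302c at 0.50 and miR-320a at 0.59, against a median of 1.20. Those of miR-29a read only 48 to 129 counts and those of miR-29b only 44 to 95, close to the threshold, so their patterns depend on the subtraction. The same limit holds for miR-342-3p outside Jurkat, with 70 to 127 counts in the other 4 lines. Within the family miR-29a and miR-29c were far apart in pattern, at 1.79, where miR-29c was 71st of 87 from miR-29a and miR-29a 66th from miR-29c. miR-29b lay nearer to miR-29a, at 1.03 (22nd from miR-29a and 28th from miR-29b), and to miR-29c, at 1.18 (17th from miR-29c and 42nd from miR-29b), in each case below the median probe.

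**Figure D5:**
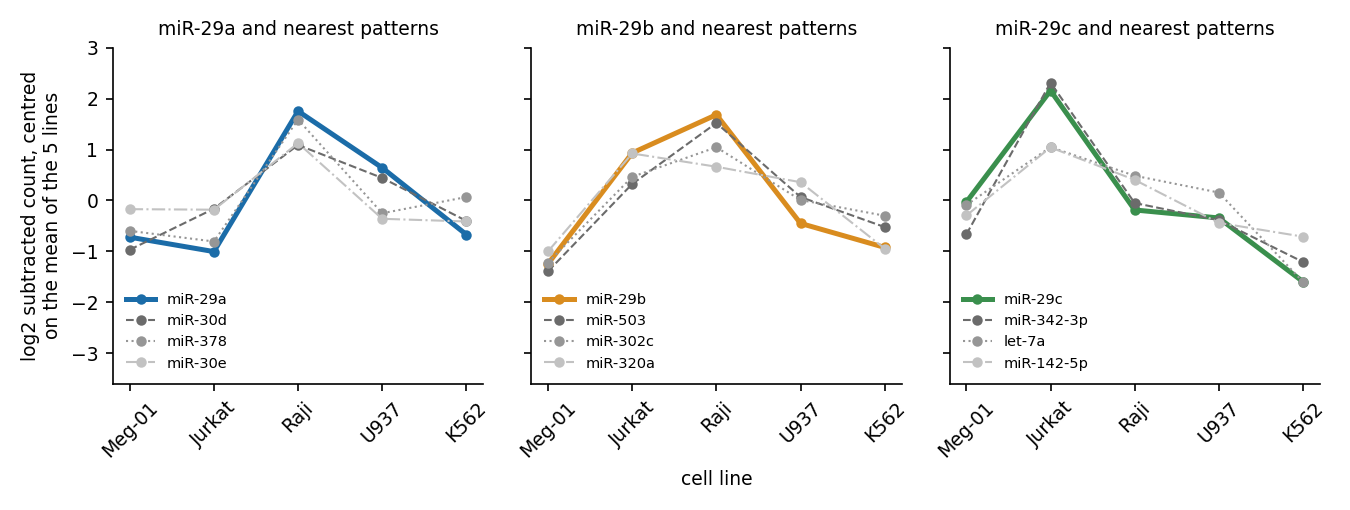
Log2 background-subtracted counts (y axis) of each member and of its 3 nearest human probes in the 5 lines (x axis), each centred on its own mean, 1 panel per member. In the miR-29c panel miR-342-3p runs nearest to it, with a root mean square difference of 0.35.

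A list of 22 miRNAs known, like miR-29, to be repressed by MYC was read in Jurkat over Raji, where Raji is a line with a translocated MYC gene. MYC itself was not measured in either line, and whether its level differed between them was not tested. All 22 were on the panel. Of these, 6 (27.3%) were above background in Jurkat and not in Raji, against 18.8% of all human probes, and none the other way. They included miR-150, a regulator of lymphocyte maturation, with 1030 counts in Jurkat and 21 in Raji (log2 ratio before subtraction 4.65), and let-7b, with 512 and 45 (2.54). The other 4, miR-22, miR-30c, miR-34a and miR-195, read 42 to 74 counts in Jurkat. Their log2 ratios before subtraction were -0.97, -0.047, -0.16 and -0.28, respectively, so none of these 4 was higher in Jurkat after scaling. They passed the normalized threshold of Jurkat (28.2) but not the higher one of Raji (72.4). The remaining 16 were above background in both lines. This leaves out miR-150 and let-7b, high in Jurkat and low in Raji, and the 4 near the threshold, so the tally of the 16 does not describe the whole list. Among the 16, 1 was at least 2-fold higher in Jurkat and 4 were lower, against 24.5% and 15.1% of all human probes, and the median log2 ratio was 0.089 against 0.19. The one higher was let-7e, a member of the growth-restraining let-7 family, at a log2 ratio of 1.06, which was -0.30 before subtraction (97 counts against 61). The highest after it among the 16 was let-7a at 0.56. The lowest were miR-146a, a repressor of inflammatory signalling, at -4.13 (53 counts against 206), and miR-30a at -1.70 (73 against 109), followed by miR-30e at -1.31 and miR-30d at -1.25. Before subtraction the miR-146a ratio was -2.93. The tally depended on the scaling too: without it 9 of the 16 were higher and 1 lower, against 56.6% and 6.60% of all human probes.

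The second list held 6 miRNAs known, as miR-29 is, to act on DNA methyltransferases or on the histone methyltransferase EZH2. Of these, 4 were above background in both lines and none differed 2-fold, against 39.6% of all human probes: miR-148b at 0.30, miR-26a at 0.27, miR-148a at 0.20 and miR-101 at -0.089, with a median of 0.23 against 0.19. Without scaling 3 of the 4 were at least 2-fold higher in Jurkat, as were 56.6% of all human probes. miR-143 was above background in Jurkat and not in Raji (48 counts against 36), and miR-152 in neither. Before subtraction the normalized miR-143 count was 38.7 in Jurkat and 56.8 in Raji, where the threshold was 28.2 and 72.4, respectively.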

How the data were processed

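Raw counts of 753 probes (654 human, 80 viral, 8 negative, 6 positive and 5 housekeeping) were deposited by the authors for each of 5 lines, 1 sample each. The kit was the nCounter human miRNA assay, given for the study as v1 and v2, and probe arms and sequences are not listed per probe. A deposited table also holds the authors' background-subtracted signal, made by taking 1 constant per line from the counts. That constant equalled the mean of the line's negative controls except in Jurkat (16.25, against 22.75) and K562 (22.75, against 20.25). It was used only as an alternative.

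Following the study's methods, a factor per line was taken from the geometric mean count of the 100 human probes highest by mean count over the lines, and the mean plus 2 SD of the scaled negative controls was subtracted. A difference of at least 2-fold counted as called, without a test. Count intervals are exact Poisson, shares exact binomial, ratios before subtraction conditional exact binomial, and those after it rest on a delta-method SE with the threshold held fixed. Human counts were 66892 to 130048 per line, and precision is lowest for miR-29b, at 55 to 147 counts. Alternatives were 6 scalings (none, positive controls, housekeeping probes, total, the 100 highest per line, and without the members), other thresholds (highest negative control, mean of negative controls, the deposited signals, no subtraction) and a minimum of 30 counts. The genes named were the members, the 3 probes nearest each in pattern and, from 2 lists of known MYC-repressed and methyltransferase-directed miRNAs, the 2 highest and 2 lowest by Jurkat over Raji among those above background in both. Other list members named were chosen after their values were seen. Members and lists were chosen with earlier results of these data known. Sequences came from RefSeq, GRCh38.p14. Scripts were tested on simulated counts and ran in python 3.11.15 with numpy 2.4.6, scipy 1.17.1, pandas 2.3.3 and matplotlib 3.10.9.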

Additional observations from a re-analysis of the deposited data

How the results depend on the processing

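No paired analysis was possible because each line has 1 sample. Among the alternative thresholds only the highest negative control was above the one used, in Meg-01 and Raji, and all 6 member values there stayed above it. The number of ratios between lines at least 2-fold ranged from 17 to 21 of 30. Which scaling lies nearest to the true levels was not tested. Scalings that do not use the human probes raised Jurkat over Raji by the same amount for every probe. The log2 rise was 0.97 without scaling, 0.87 with positive controls and 0.98 with housekeeping probes. The miR-29b log2 ratio then turned from -0.75 to 0.22 without scaling, 0.12 with positive controls, 0.22 with housekeeping probes and 0.14 with the deposited signals. In the same order miR-29a moved from -2.76 to -1.79, -1.89, -1.78 and -1.75, and miR-29c from 2.35 to 3.32, 3.22, 3.32 and 3.17. Without subtraction, which leaves background in both lines, miR-29c was at 2.07, the miR-29c to miR-29a contrast of Jurkat and Raji at 4.76 (from 5.11 on the log2 scale), the miR-29a share spanned 62.0 percentage points (from 66.3), and the family sum of the highest line over the lowest, Raji over K562, was 4.27-fold (from 4.84). It was 5.90-fold for the same lines with total counts. With housekeeping probes it was 3.31-fold, with Jurkat highest and Meg-01 lowest, and Raji over K562 was then 2.26-fold. Depth limits miR-29b most, at 55 to 147 counts, and no value carries biological replicate error.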
